A study of Homo sapiens with 6 samples.

Results

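Glycolysis and the cell's response to oxygen were followed through 42 genes, chosen by symbol as 22 enzymes of glucose breakdown with their kinases and 20 targets or sensors of the hypoxia-inducible factor (HIF) pathway. All 42 were among the 20461 Ensembl entries of the tables, and all 42 were among the 13645 genes with enough reads to be tested. The RNA came from ARPE-19, a human retinal pigment epithelial (RPE) cell line. Control cells carried a control lentivirus, and PDZK1 cells carried a virus for overexpression of PDZK1, which anchors membrane transporters. Both groups received virus at a multiplicity of infection of 10, were selected with 4 µg/ml puromycin and were kept in 37.5 mM glucose for 48 h, and each group had 3 libraries. The selected cells were a transduced population of a continuous line, every library was in high glucose, and no group at normal glucose or low oxygen enters the comparison. The labels do not say that the libraries came from separate cultures, so the p-values measure the spread between these libraries, which may be technical.

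Glycolysis splits glucose into pyruvate in a chain of cytosolic reactions. Hexokinase and phosphofructokinase hold its main control points, and lactate dehydrogenase turns pyruvate into lactate. Pyruvate dehydrogenase kinases (PDKs) keep pyruvate from being burned in the mitochondria by switching off pyruvate dehydrogenase. HIF is a transcription factor whose alpha subunit is hydroxylated by oxygen-dependent EGLN enzymes and then degraded. When oxygen is short it binds DNA and raises glycolytic enzymes and many other genes. The RPE lies between photoreceptors and their blood supply and is known to spare glucose for the photoreceptors.

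HIF binds a short core, ACGTG or GCGTG, which reads CACGT or CACGC on the other strand. Shown here is sequence just before a RefSeq transcription start (GRCh38.p14) of 6 members that fell with PDZK1 and of CA9, a classical HIF target, to show where these letters stand. HK2 and AK4 are given for the whole 150 bases before the start. GENCODE 29 starts HK2 earlier as well, at 74833981, so the HK2 stretch lies inside that gene, with 0 bases in an exon. In the other 5, GENCODE 29 starts the gene earlier and places some or all of those bases in its first exon, so only 30 bases around the ACGTG nearest to the RefSeq start are given. All run 5′ to 3′ on the gene's strand, with every core on either strand in capitals, and where RefSeq lists several starts the one with the most cores was taken. PFKL and ENO1 also fell but are not shown. Their listed promoters held 0 copies of ACGTG on either strand, and only GCGTG cores, 1 in PFKL and 2 in ENO1.
PDK1 (chr2:172556060-172556089, plus strand): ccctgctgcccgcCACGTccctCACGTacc
HK2 (chr2:74835020-74835169, plus strand): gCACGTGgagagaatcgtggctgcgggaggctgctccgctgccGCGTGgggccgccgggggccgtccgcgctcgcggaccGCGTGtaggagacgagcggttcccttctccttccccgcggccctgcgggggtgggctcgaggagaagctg
ALDOC (chr17:28576907-28576936, minus strand): cccccggaggagtCACGTagctctgcgaca
P4HA1 (chr10:73096936-73096965, minus strand): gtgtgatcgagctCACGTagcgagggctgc
AK4 (chr1:65147402-65147551, plus strand): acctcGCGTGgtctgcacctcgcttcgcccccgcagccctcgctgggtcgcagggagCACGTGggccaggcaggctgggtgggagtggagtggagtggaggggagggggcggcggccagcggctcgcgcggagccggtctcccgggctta
EGLN1 (chr1:231422288-231422317, minus strand): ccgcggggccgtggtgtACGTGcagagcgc
CA9 (chr9:35673897-35673926, plus strand): ctcgtttccaatgCACGTacagcccgtaca
The core closest to the start lay 8 bases before it in PDK1, 13 in EGLN1 and 18 in CA9. In HK2 and AK4 one capital run is CACGTG, the E-box that other factors also read, and it counts as a core on both strands. Promoter entries of 300 bases across the start were found for 38 of the 42 genes. A core was in 48.4% of all 35116 promoters of that length, in 59.6% of the 16187 of tested genes, in 28 of 43 (65.1%) promoters of the enzymes and in 20 of 24 (83.3%) of the HIF targets. The stricter ACGTG was in 24.9% of the promoters of tested genes and in 29 of 67 (43.3%) of those of the members. Among members it was in 8 of 13 promoters of the 8 genes that fell and in 21 of 54 promoters of 30 others. A gene with several listed starts counts several times here, and its promoters can overlap. These shares therefore describe promoter entries and do not compare genes. A match describes letters and is not a binding site.

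PDZK1 RNA itself was at 0.588, 0.583 and 0.834 CPM (counts scaled to library size) in control replicates 1 to 3 and at 94.2, 77.5 and 89.2 CPM in PDZK1 replicates 1 to 3, in the direction of the labels. The libraries held 27970618 to 32804567 counts, and control replicate 3 stood apart from the other controls on the second principal component (-29.99 against 14.45 and 18.79). Of 16 RPE markers, RPE65 and TTR, which define mature RPE, had 0 counts in every library and TYR had 2 counts in 1 library, while the transcription factors MITF and OTX2 were present. The summed markers ran from 2823 to 3098 CPM in controls and from 2899 to 3358 CPM in PDZK1 libraries. The top value came from BEST1, which overlaps FTH1 and had 357.6 CPM in PDZK1 replicate 1 against 4.32 to 5.60 CPM elsewhere, and without it the sums were 2819 to 3092 CPM and 2895 to 3025 CPM. Of 14 markers of other retinal, vascular and immune cells, 7 or 8 per library had 0 counts, including the leukocyte gene PTPRC and the endothelial gene CDH5 in all of them. The most abundant of the rest were the lysosomal gene CD68 (130.6 to 160.3 CPM in controls, 123.2 to 126.3 CPM in PDZK1 libraries) and PDGFRB (64.4 to 76.8 and 76.5 to 83.8 CPM), followed by PDE6B (13.99 to 16.1 and 14.2 to 16.1 CPM). COL1A1 was at 3.30 to 4.71 CPM in controls and at 5.58 to 6.12 CPM in PDZK1 libraries. With PDZK1 all libraries were lower for CD68 and higher for COL1A1, and none of the 5 tested markers passed the edgeR test. Their part in the results was not tested.

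With PDZK1 overexpression 8 of the 42 genes fell and 0 rose at an adjusted p under 0.05 (edgeR quasi-likelihood test). They were HK2, PFKL, ALDOC, ENO1 and PDK1 among the enzymes, and P4HA1, AK4 and EGLN1 among the HIF targets. Over all tested genes 2.41% fell and 1.41% rose, 3.83% in all. The fitted change was below 0 in 34 of the 42 genes, 20 of 22 enzymes and 14 of 20 HIF targets, against 6837 of the 13645 tested genes. The median log2 change was -0.13 for the enzymes and -0.13 for the HIF targets, against -0.00026 for all tested genes. Of 10 common reference genes outside the members, 8 also had a fitted change below 0, with a median of -0.061. The drops were small, between 12.2% and 31.8% for the 8 genes, and none of them reached a fold change of 1.5. All libraries of PDZK1 cells lay below all controls for 16 genes, 8 in each class, and above them for KDM3A, a histone demethylase. Over all tested genes the groups were apart in this way for 12.3% (lower) and 11.6% (higher). In bulk RNA, fewer cells that express a gene and less RNA per cell cannot be told apart.

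**Figure D1:**
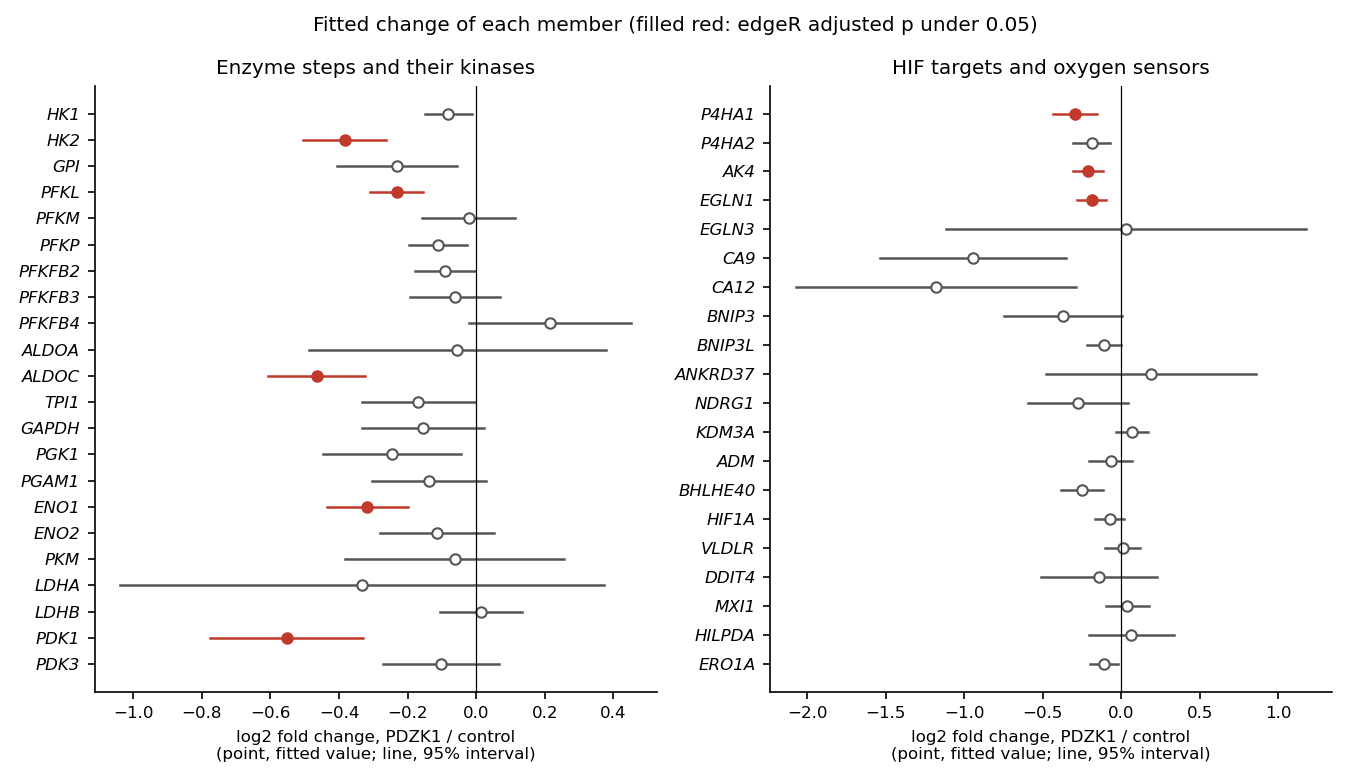
Fitted log2 fold change (PDZK1 over control) of each of the 22 enzymes (left) and 20 HIF targets (right), with 95% intervals from the edgeR fit of 3 libraries against 3. The 8 filled red points are the genes past the threshold, from -0.19 (EGLN1) to -0.55 (PDK1), and CA9 and CA12 lie further left with wide intervals.

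Glucose is trapped in the cell by hexokinases. HK2, the inducible hexokinase bound to mitochondria (chromosome 2, 74833981 to 74893359), was at 36.1, 38.9 and 36.8 CPM in control replicates 1 to 3 and at 28.8, 28.6 and 28.3 CPM in PDZK1 replicates 1 to 3. The groups did not overlap, and the PDZK1 libraries lay very close together. HK2 fell by 0.38 on the log2 scale (95% interval -0.50 to -0.26, adjusted p = 0.00454, edgeR), a drop of 23.4%. The constitutive HK1, by far the more abundant per transcript length (89.8 ± 1.48 FPKM against 6.07 ± 0.228 FPKM for HK2 in controls, SD, n = 3), was at 345 to 348 CPM in controls and at 326 to 329 CPM in PDZK1 libraries. Its groups were also apart, but its fitted log2 change was only -0.081 (adjusted p = 0.209, edgeR). HK2 made up 6.33 ± 0.130% of the summed FPKM of HK1 and HK2 in controls and 5.05 ± 0.0765% in PDZK1 libraries (SD, n = 3; two-sided exact permutation p = 0.1, the smallest that 3 against 3 allows; 0.167 after adjustment over 5 isozyme shares). HKDC1, a hexokinase outside the members, was at 171.5 to 185.7 CPM in controls and at 141.6 to 150.2 CPM in PDZK1 libraries. It fell by 0.29 on the log2 scale (adjusted p = 0.00403, edgeR). HKDC1 was the only 1 to pass of 10 tested glycolysis genes outside the members. Of these 10, 7 had a positive change, and their median log2 change was 0.039. With HKDC1 counted in the family, a choice made after seeing the data, the HK2 share was 4.32 ± 0.155% in controls and 3.61 ± 0.0073% in PDZK1 libraries (SD, n = 3; two-sided exact permutation p = 0.1).

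Phosphofructokinase commits the sugar to glycolysis. PFKL, the liver-type subunit (chromosome 21, 44300051 to 44327376), was at 251, 253 and 258 CPM in control replicates 1 to 3 and at 216, 222 and 210 CPM in PDZK1 replicates 1 to 3. The groups lay well apart. PFKL fell by 0.23 on the log2 scale (95% interval -0.31 to -0.16, adjusted p = 0.0057, edgeR), or 14.9%. The platelet-type PFKP, the most abundant of the 3 subunits, was at 532 to 542 CPM in controls and at 486 to 519 CPM in PDZK1 libraries (log2 change -0.11, adjusted p = 0.153, edgeR), and the muscle-type PFKM overlapped between the groups (log2 change -0.022, adjusted p = 0.895). The PFKP share of the family was 56.4 ± 1.37% in controls and 56.9 ± 0.295% in PDZK1 libraries (SD, n = 3; two-sided exact permutation p = 0.9). GPI, which isomerizes glucose 6-phosphate, was at 433, 450 and 518 CPM in control replicates 1 to 3 and at 390, 428 and 377 CPM in PDZK1 replicates 1 to 3 (log2 change -0.23, adjusted p = 0.162, edgeR; 0.0267 with DESeq2). Its highest PDZK1 library came close to its lowest control. The bifunctional enzymes that set fructose 2,6-bisphosphate did not pass the test, with log2 changes of -0.091 for PFKFB2, -0.062 for PFKFB3 and 0.22 for PFKFB4.

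Aldolase cuts the sugar into trioses. ALDOC, the brain-type aldolase (chromosome 17, 28573115 to 28577264), was at 33.7, 34.1 and 35.0 CPM in control replicates 1 to 3 and at 26.8, 24.2 and 23.6 CPM in PDZK1 replicates 1 to 3. The controls were tightly grouped and every PDZK1 library was lower. ALDOC fell by 0.46 on the log2 scale (95% interval -0.61 to -0.32, adjusted p = 0.00382, edgeR), a drop of 27.5%. The main aldolase ALDOA was at 1114, 1574 and 1695 CPM in control replicates 1 to 3 and at 1386, 1477 and 1357 CPM in PDZK1 replicates 1 to 3 (log2 change -0.055, adjusted p = 0.911, edgeR). Control replicate 1 was the lowest of all 6 libraries. An entry that overlaps ALDOA on the same strand, AC093512.2, was at 534 CPM in that library and at 108 to 234 CPM in the other 5, and the sum of both entries was at 1648, 1682 and 1863 CPM in controls and at 1534, 1710 and 1510 CPM in PDZK1 libraries. The ALDOC share of aldolase FPKM was 2.18 ± 0.467% in controls and 1.601 ± 0.102% in PDZK1 libraries (SD, n = 3; two-sided exact permutation p = 0.1, adjusted 0.167), and control replicate 1 was the high control at 2.71%. Without control replicate 1 the difference in share narrowed from -0.576 to -0.307 percentage points.

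Enolase acts late in the pathway, in the stretch that yields ATP. ENO1, the main enolase (chromosome 1, 8861000 to 8879250), was at 1495, 1546 and 1692 CPM in control replicates 1 to 3 and at 1262, 1314 and 1222 CPM in PDZK1 replicates 1 to 3. Control replicate 3 was the highest, and the groups did not overlap. ENO1 fell by 0.32 on the log2 scale (95% interval -0.43 to -0.20, adjusted p = 0.0108, edgeR), a drop of 19.7%. ENO1 lies in the first 18 Mb of chromosome 1, a stretch known from earlier results of these data to be lower as a whole, where 139 of 149 other tested genes had a negative change with a median of -0.23 and 42 of them were lower than ENO1. Of these 149 genes, 40 fell at an adjusted p under 0.05 (edgeR), against 2.41% of all tested genes. The part of this neighbourhood in the ENO1 value, or in the enolase share that rests on it, was not tested. ENO2, the neuronal enolase, was at 195 to 231 CPM in controls and at 185 to 204 CPM in PDZK1 libraries (log2 change -0.11, adjusted p = 0.475, edgeR). Its share of enolase FPKM went from 8.34 ± 0.251% in controls to 9.59 ± 0.0715% in PDZK1 libraries (SD, n = 3; two-sided exact permutation p = 0.1, adjusted 0.167), with each PDZK1 library above each control.

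GAPDH, which oxidizes the triose and serves as the reference gene in many assays, was at 4346, 4427 and 5155 CPM in control replicates 1 to 3 and at 4008, 4527 and 3969 CPM in PDZK1 replicates 1 to 3. The groups overlapped through PDZK1 replicate 2 (log2 change -0.16, 95% interval -0.33 to 0.022, adjusted p = 0.354, edgeR). Of 10 other reference genes 0 passed the edgeR test, and ACTB had a log2 change of -0.050. The triose isomerase TPI1 (-0.17), the phosphoglycerate kinase PGK1 (-0.25) and the mutase PGAM1 (-0.14) had negative log2 changes that did not pass, with adjusted p values of 0.273, 0.192 and 0.387 (edgeR). With DESeq2 PGK1 passed (adjusted p = 0.0235). GAPDH has 62 numbered pseudogenes in the annotation and PGAM1 has 13, so reads can be split among copies and these values are less certain.

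Pyruvate kinase makes pyruvate, lactate dehydrogenase makes lactate and the PDKs decide whether pyruvate is burned. PDK1, the kinase that HIF induces (chromosome 2, 172555373 to 172608669), was at 44.8, 42.4 and 53.9 CPM in control replicates 1 to 3 and at 31.2, 35.0 and 29.9 CPM in PDZK1 replicates 1 to 3. The highest control was replicate 3 and the highest PDZK1 library replicate 2, with no overlap in CPM. In FPKM the groups overlapped. PDK1 was at 7.51, 4.52 and 8.03 FPKM in control replicates 1 to 3 and at 4.46, 5.21 and 3.455 FPKM in PDZK1 replicates 1 to 3. PDK1 fell by 0.55 on the log2 scale (95% interval -0.78 to -0.33, adjusted p = 0.0195, edgeR), a drop of 31.8% and the largest among the 8. Its relative PDK3 did not pass (-0.10, adjusted p = 0.541). A list of 12 further genes held the pyruvate dehydrogenase complex, its phosphatases, pyruvate import and the kinases PDK2 and PDK4. Of these 12, 7 had a positive change and 5 a negative one, and 1 passed. PDK2 was above PDK1 in every control, at 11.85 to 14.79 FPKM. Neither PDK2 (log2 change 0.0205, adjusted p = 0.942, edgeR) nor PDK4 (0.34, adjusted p = 0.36) passed, so the fall was not shared by all PDKs. The gene that passed was PDHB, a subunit of the complex itself. It was at 108.7 to 113.3 CPM in controls and at 94.5 to 100.3 CPM in PDZK1 libraries (log2 change -0.19, adjusted p = 0.0292, edgeR). LDHA, the lactate-forming subunit, was at 846, 975 and 1322 CPM in control replicates 1 to 3 and at 745, 1063 and 686 CPM in PDZK1 replicates 1 to 3. It ranged 1.56-fold among controls and 1.55-fold among PDZK1 libraries, and the difference between the groups did not pass (log2 change -0.33, 95% interval -1.04 to 0.37, adjusted p = 0.608, edgeR). LDHB, its partner, had a log2 change of 0.015 (adjusted p = 0.926), and its share of the pair was 56.4 ± 7.04% against 62.9 ± 4.14% (SD, n = 3; two-sided exact permutation p = 0.3, adjusted 0.375). The LDHB share rests on LDHA FPKM, which ordered the libraries differently from LDHA CPM. LDHA was at 389, 535 and 781 FPKM in control replicates 1 to 3 and at 453, 499 and 336 FPKM in PDZK1 replicates 1 to 3. PKM had a log2 change of -0.063 (adjusted p = 0.86).

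**Figure D2:**
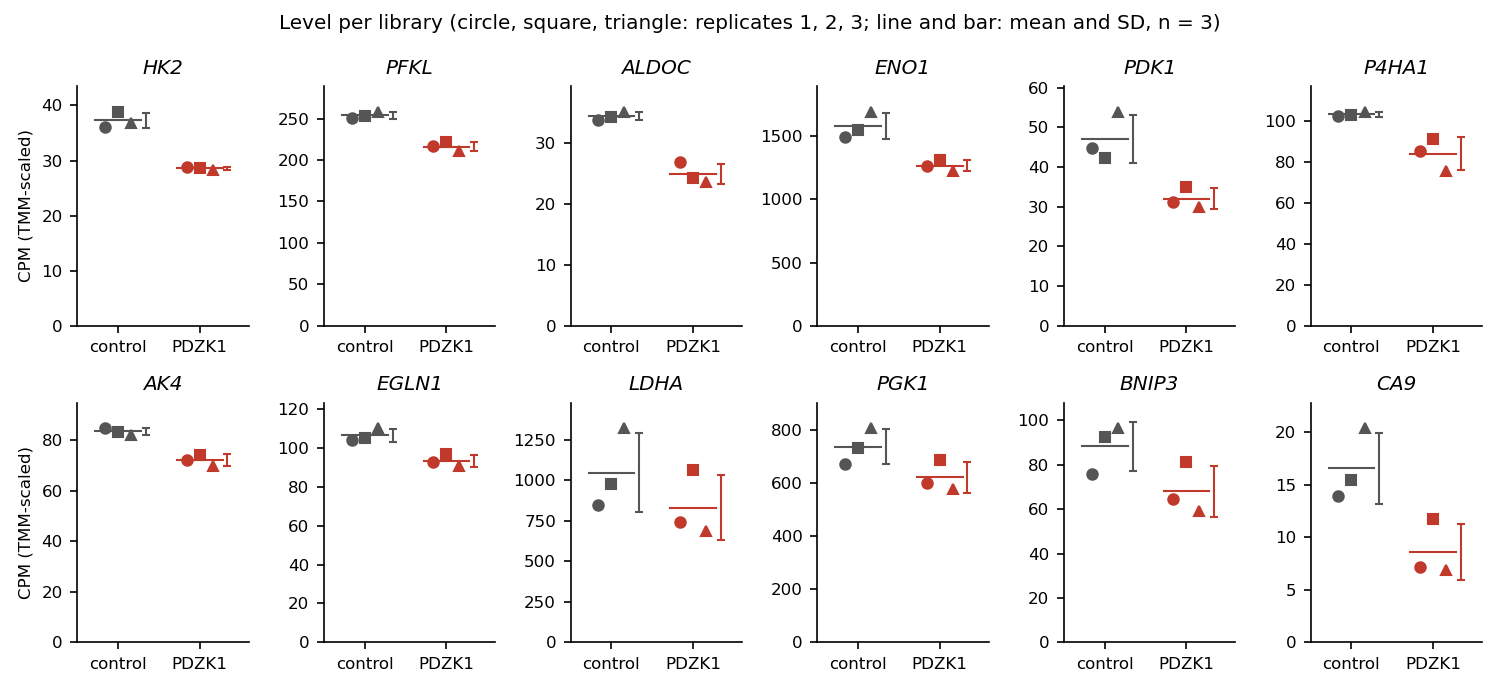
CPM of 12 members in each library (linear axes from 0), with the mean and SD of each group (n = 3). The 8 genes from HK2 to EGLN1 have 2 separate groups of points, while LDHA, PGK1 and BNIP3 overlap and CA9 ranges from 13.9 to 20.4 CPM in controls and from 6.94 to 11.7 CPM in PDZK1 libraries.

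Among HIF targets, P4HA1, the prolyl hydroxylase subunit that modifies collagen (chromosome 10, 73007217 to 73096974), was at 102, 103 and 104 CPM in control replicates 1 to 3 and at 85.6, 91.0 and 75.5 CPM in PDZK1 replicates 1 to 3. The controls were nearly equal and all PDZK1 libraries lower. P4HA1 fell by 0.30 on the log2 scale (95% interval -0.44 to -0.16, adjusted p = 0.0322, edgeR), or 18.6%. Its relative P4HA2 was at 80.02 to 87.2 CPM in controls and at 70.9 to 78.1 CPM in PDZK1 libraries, and did not pass (log2 change -0.19, adjusted p = 0.0883). AK4, a mitochondrial adenylate kinase (chromosome 1, 65147549 to 65232145), was at 84.7, 83.4 and 82.2 CPM in control replicates 1 to 3 and at 72.3, 74.2 and 69.7 CPM in PDZK1 replicates 1 to 3. The groups lay apart, and AK4 fell by 0.21 on the log2 scale (95% interval -0.31 to -0.12, adjusted p = 0.027, edgeR), or 13.7%. AK4 has 6 numbered pseudogenes, which can share its reads.

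Oxygen sensing itself was represented by EGLN1, the main prolyl hydroxylase that marks HIF alpha for degradation (chromosome 1, 231363751 to 231425044). It was at 104, 105 and 110 CPM in control replicates 1 to 3 and at 92.4, 96.6 and 90.8 CPM in PDZK1 replicates 1 to 3, again with no overlap. EGLN1 fell by 0.19 on the log2 scale (95% interval -0.28 to -0.096, adjusted p = 0.0364, edgeR), or 12.2%. HIF1A, the alpha subunit, was at 906, 931 and 948 CPM in control replicates 1 to 3 and at 876, 919 and 852 CPM in PDZK1 replicates 1 to 3, and its groups overlapped (log2 change -0.073, 95% interval -0.17 to 0.019, adjusted p = 0.404, edgeR). HIF alpha is regulated mainly as protein, which RNA does not show. EGLN3 had at most 1.42 CPM and cannot be read at this depth. Of 17 tested HIF regulators outside the members 1 passed: EPAS1, the HIF-2 alpha subunit, was at 260.5 to 270.4 CPM in controls and at 207.3 to 216.1 CPM in PDZK1 libraries, and fell by 0.33 on the log2 scale (adjusted p = 0.000895, edgeR).

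CA9, the membrane carbonic anhydrase used as a hypoxia marker, was at 13.9, 15.5 and 20.4 CPM in control replicates 1 to 3 and at 7.18, 11.7 and 6.94 CPM in PDZK1 replicates 1 to 3. Every PDZK1 library was below every control, but the spread within groups was wide, and the difference did not pass (log2 change -0.94, 95% interval -1.54 to -0.35, adjusted p = 0.106, edgeR). CA9 overlaps ARHGEF39 on the opposite strand, an entry with 241 to 301 counts per library. The related CA12 was near the lower end of detection, at 2.36 to 2.75 CPM in controls and at 0.468 to 1.77 CPM in PDZK1 libraries (log2 change -1.18, adjusted p = 0.154, edgeR). BHLHE40, a transcriptional repressor, came nearest to passing, at 128.7, 132.0 and 114.5 CPM in control replicates 1 to 3 and at 110.1, 99.7 and 105.8 CPM in PDZK1 replicates 1 to 3 (log2 change -0.25, adjusted p = 0.0526, edgeR). The mitophagy receptor BNIP3 (-0.37), which has 39 numbered pseudogenes, the stress gene NDRG1 (-0.27) and DDIT4 (-0.14), an inhibitor of mTOR signalling, had overlapping groups and did not pass. With DESeq2 CA9 (adjusted p = 0.00023), BHLHE40 (0.00767) and BNIP3 (0.0241) passed. The other 8 HIF targets ranged from -0.11 (BNIP3L and the oxidoreductase ERO1A) to 0.19 (ANKRD37). Among them, the vasodilator peptide gene ADM (-0.068) lies in the first 18 Mb of chromosome 11, where the other 135 tested genes had a median of 0.13. Of 37 further HIF targets 2 passed, both lower: LOX, a collagen cross-linking enzyme (-0.19, adjusted p = 0.0426), and WSB1, a ubiquitin ligase subunit (-0.31, adjusted p = 0.0421), against 24 of 37 with a negative change. Of these 37, 5.41% fell past the threshold, against 2.41% of all tested genes. A negative change was found in 64.9% of them, against 50.1% of all tested genes, and their median log2 change was -0.0345. VEGFA (-0.13) and the glucose transporter SLC2A1 (-0.068) did not pass the edgeR test.

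Within groups the members also moved together from library to library. In 24 of the 42 genes (15 enzymes and 9 HIF targets) control replicate 3 was the highest control and PDZK1 replicate 2 the highest PDZK1 library, against 19.8% of all tested genes. The same held in 6 of the 10 reference genes and in 23 of the 30 proliferation genes described below. The pattern was noticed in the values and has no test. The median log2 deviation of the enzymes from their mean over the 6 libraries was 0.0022, 0.054 and 0.22 for the controls and -0.092, -0.0021 and -0.13 for the PDZK1 libraries, in replicate order, so that PDZK1 replicate 2 came close to control replicate 1. For the HIF targets it was -0.0027, 0.080 and 0.085 in controls and -0.082, 0.0068 and -0.087 in PDZK1 libraries, a narrower span. A list of 30 proliferation genes ran the same way, at -0.091, 0.024 and 0.20 in controls and at -0.12, 0.14 and -0.17 in PDZK1 libraries, and 29 of its 30 genes had a negative change, although only MCM6, a DNA replication helicase subunit, passed (-0.27, adjusted p = 0.0278, edgeR). Their part in the glycolysis values was not tested. Summed over the 22 enzymes, the share of the Ensembl FPKM total was 2.22%, 2.39% and 2.74% for the controls and 2.21%, 2.39% and 2.14% for the PDZK1 libraries, in replicate order, and the groups overlapped. Without control replicate 3 the enzyme median was -0.075 and the HIF-target median -0.085.

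**Figure D3:**
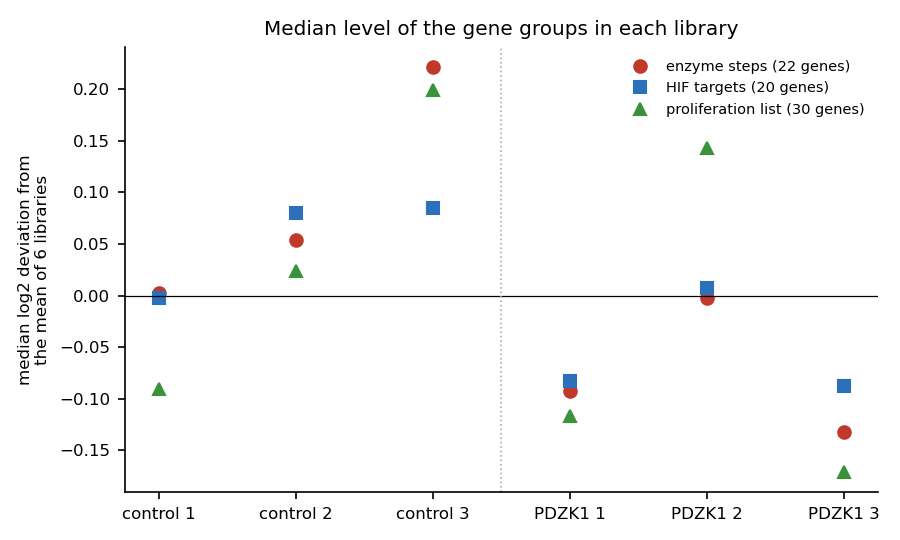
Median log2 deviation of each gene group from its mean over the 6 libraries, per library (circles, 22 enzymes; squares, 20 HIF targets; triangles, 30 proliferation genes). Control replicate 3 was the highest control for all 3 groups, and PDZK1 replicate 2 the highest PDZK1 library.

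How firmly the 8 calls stand differed from gene to gene. ALDOC passed under all 17 alternative settings (adjusted p up to 0.0372). HK2 and PFKL passed under 16, HK2 missing on log2 FPKM without a filter (adjusted p = 0.0648, limma) and PFKL in the fit with a replicate term. ENO1 and PDK1 each passed under 10, with adjusted p up to 0.101 and 0.4. AK4 passed under 9, P4HA1 under 6 and EGLN1 under 5. Of 6 fits that leave out 1 library, HK2, PFKL and ALDOC passed all, ENO1 and PDK1 passed 3, AK4 passed 2, and P4HA1 and EGLN1 passed 1. ENO1 was lost without control replicate 2 and PDK1 without control replicate 1, and both without PDZK1 replicate 1 or 3. EGLN1 passed without control replicate 3, AK4 without control replicate 3 or PDZK1 replicate 2, and P4HA1 without PDZK1 replicate 2.

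**Figure D4:**
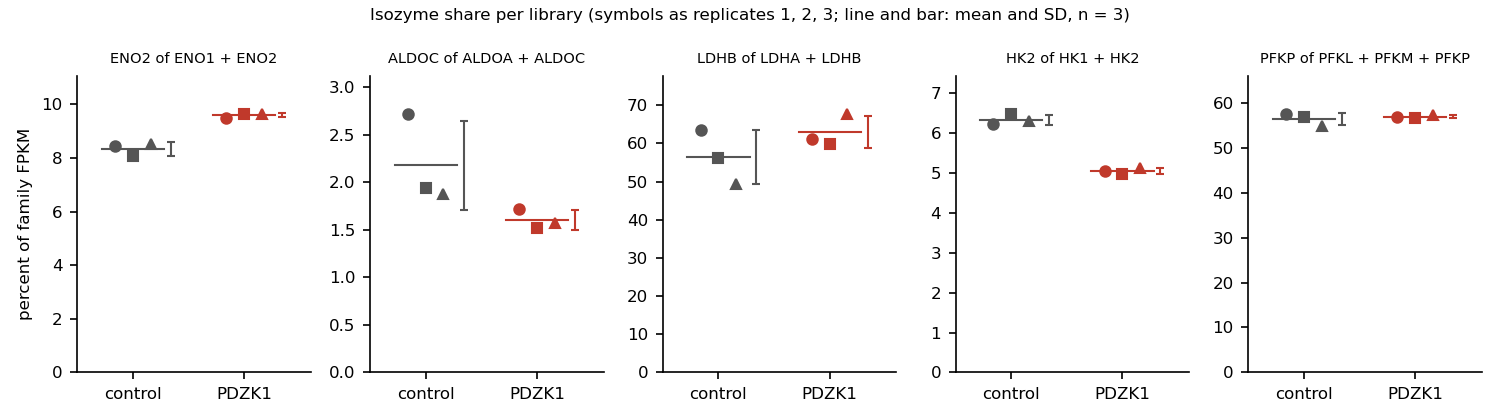
Share of one isozyme in the FPKM of its family, in percent, per library (symbols as replicates 1 to 3; line and bar, mean and SD, n = 3; axes from 0). ENO2 was higher and ALDOC and HK2 lower in all 3 PDZK1 libraries, LDHB and PFKP overlapped.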

How the data were processed

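The submitters' processing notes name fastp 0.20.1, HISAT2 2.2.1 and the build GRCh38. The counting program and its strand setting are not given in the sources used here, so reads of overlapping or antisense genes cannot be told apart. The authors deposited estimated counts per gene as whole numbers, unscaled, and FPKM, scaled by the authors to transcript length and mapped fragments. Each table also has 3 per-sample columns that match no sample and were not used. The 853 assembled loci (0.519% to 0.536% of counts) were left out.

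The counts were compared between PDZK1 overexpression and control with edgeR 4.0.16 in R 4.3.3 (filterByExpr, TMM, robust quasi-likelihood fit, no covariate), with Benjamini-Hochberg adjustment over 13645 genes and a threshold of 0.05. The fit was tested on simulated data. The biological coefficient of variation was 0.0995. CPM used TMM-scaled library sizes. Isozyme shares were compared by exact permutation tests (scipy 1.17.1). Alternatives were DESeq2 1.42.0, limma 3.58.1 (voom, log2 FPKM with pseudocounts of 1 and 0.1), other scalings, filters and thresholds, a replicate block, each library left out and, added later, HKDC1 in the hexokinase family. Coordinates are those of GENCODE 29.

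The members and lists were chosen with earlier results of these data known. Genes past the threshold, the 6 next by adjusted p, HIF1A and GAPDH are given in full, and from other lists at most 4 genes past the threshold. VEGFA, SLC2A1 and ACTB, and others outside this rule, were named after their values were seen. Precision is limited by 3 libraries a group, and counting intervals would cover counting error only.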

Additional observations from a re-analysis of the deposited data

How the results depend on the processing

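Against 522 genes past the threshold by edgeR, DESeq2 gave 793, log2 FPKM 184 and 185 (pseudocounts of 1 and 0.1) and 185 (no filter), the replicate block 163, a fold change over 1.5 as well 171, and an unadjusted p under 0.05 2388. Leaving out 1 library gave 181 to 875, lowest without PDZK1 replicate 1 and highest without control replicate 3. For the enzymes, 5 by edgeR, DESeq2 gave 7 (adding GPI and PGK1), log2 FPKM gave 3, 3 and 2, the replicate block 2, the fold change 0 and the unadjusted p 11, and leaving out 1 library 3 to 5. For the HIF targets, 3 by edgeR, DESeq2 gave 6 (adding BHLHE40, BNIP3 and CA9), voom 1, log2 FPKM 0, 0 and 0, a fit that was not robust 1, the replicate block 0, the fold change 0 and the unadjusted p 9. Leaving out 1 library gave 0 to 4 HIF targets, with 0 without control replicate 1 or 2 and without PDZK1 replicate 1 or 3. The cause of these changes was not tested. Residuals of libraries with the same replicate number correlated at -0.0462, -0.056 and -0.143, and those of differently numbered libraries at -0.0776 to 0.129. Residuals around means of 3 libraries are tied to each other, so they cannot show whether libraries were paired. With the replicate block HK2 and ALDOC kept an adjusted p under 0.05 while PFKL was at 0.0569. The other 4 scalings and filters of the counts kept 5 enzymes and 2 to 4 HIF targets. The HIF-target median ran from -0.19 (without control replicate 1) to -0.085 over these fits. On TMM-scaled counts the ENO2 share differed by 1.53 and the HK2 share by -1.69 percentage points, and with HKDC1 in the family, added after seeing the data, the HK2 share differed by -0.705. The PFKP share difference ran from -0.261 (without control replicate 3) to 1.04. Members near 0 turned sign with a library left out: PFKM -0.063 to 0.057, ALDOA -0.22 to 0.066, PKM -0.14 to 0.077, LDHB -0.021 to 0.073, EGLN3 -0.39 to 0.70, ANKRD37 -0.041 to 0.41, VLDLR -0.0076 to 0.038, DDIT4 -0.23 to 0.049 and HILPDA -0.015 to 0.12. Depth, at 27970618 counts or more, leaves EGLN3 near the detection limit.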
